A study of Mus musculus with 8 samples.

Results

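The genes described here are 10 regulators of tissue mineralisation, chosen by name as handlers of phosphate, of pyrophosphate or of the mineral itself, and all 10 were found among the 20681 genes measured in mouse knee joints. Poly-A RNA of 8 whole joints was sequenced, 4 labelled control and 4 labelled knockout. The labels place all 8 in Acan-Cre;Loxl2 fl/fl mice, in which a recombinase driven by the aggrecan gene Acan, active in cartilage cells, can delete the loxP-flanked gene of the collagen-crosslinking enzyme LOXL2, and all library names carry DMM, usually short for a meniscus surgery that injures the joint. The control libraries are named Vehicle_DMM_LOXL2wt and described as vehicle-treated, and the others are named KO_DMM_LOXL2ko, with no agent given in place of vehicle, so vehicle and genotype cannot be told apart. The labels used here give no age, and whether each library is a separate animal is not said. The p-values therefore set each group difference against the spread between these libraries, which may be technical and not between animals.

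Mineral forms where phosphate and calcium meet in a matrix that permits it. Matrix vesicles, shed by hypertrophic chondrocytes and osteoblasts, start the process with the help of phosphatases, phosphate carriers and annexins, while pyrophosphate, a small molecule made outside the cell, blocks crystal growth until it is cleaved. In a joint the balance matters in calcified cartilage, in bone and in osteophytes, and loss of the pyrophosphate regulators ENPP1 or ANK leads to ectopic joint mineral in mice.

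Each library held 13991000 to 17411617 reads assigned to genes, and values below are normalised read counts, that is counts divided by a size factor per library. A gene was tested where it reached 10 in at least 4 libraries, the test was limma on log2 of the value plus 1, and a gene is called at a Benjamini-Hochberg adjusted p under 0.05 over all 14949 genes tested. Differences are log2, libraries labelled knockout minus control, with the standard error (SE) of the limma fit. The mean of the targeted gene's transcript went against the labels, since Loxl2 averaged 519 ± 411 in control and 1210 ± 329 in the libraries labelled knockout (SD, n = 4), with control replicate 3 at 1135, so the groups are named by their labels only. The groups overlapped (exact two-sided permutation p = 0.0857). The limma call (adjusted p = 0.0294) was lost in 9 of 18 alternative analyses, among them edgeR and DESeq2. Counts of a whole joint do not separate cell types, so a loss of Loxl2 in cartilage cells was not tested, and no cause is given for the higher mean. Cartilage transcripts were present in every library, with Acan at a mean of 221 and 286 and Col2a1 at 1045 and 1165, and Acta1, the skeletal muscle actin, at 403793 and 253117. When each library was scaled on the genes left after muscle, blood and the 50 highest genes were set aside, the median of all genes moved from 0.00 to 0.15, and 2719 of 3496 calls were then higher (77.8%) against 1732 of 3461 as deposited.

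Of the 10 mineralisation genes, 4 rose (Spp1, Alpl, Mgp and Anxa5), 2 fell (Phospho1 and Ank) and 4 were not called (Enpp1, Slc20a1, Slc20a2 and Smpd3). All 10 passed the filter on low values. The 6 calls among 10 compare with a call rate of 23.2% over all genes tested, and the rate was 11.6% for calls higher and 11.6% for calls lower. The groups did not overlap for 5 of the 10, against 25.1% of all genes tested. The median difference of the 10 was 0.69, against 0.00 for all genes. The 10 were chosen with earlier results of these data known, so these comparisons describe the set and do not test an enrichment. Direction did not follow role: promoters of mineral were among the genes that rose (Alpl, Anxa5) and that fell (Phospho1), and so were inhibitors (Spp1 and Mgp rose, Ank fell).

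**Figure D1:**
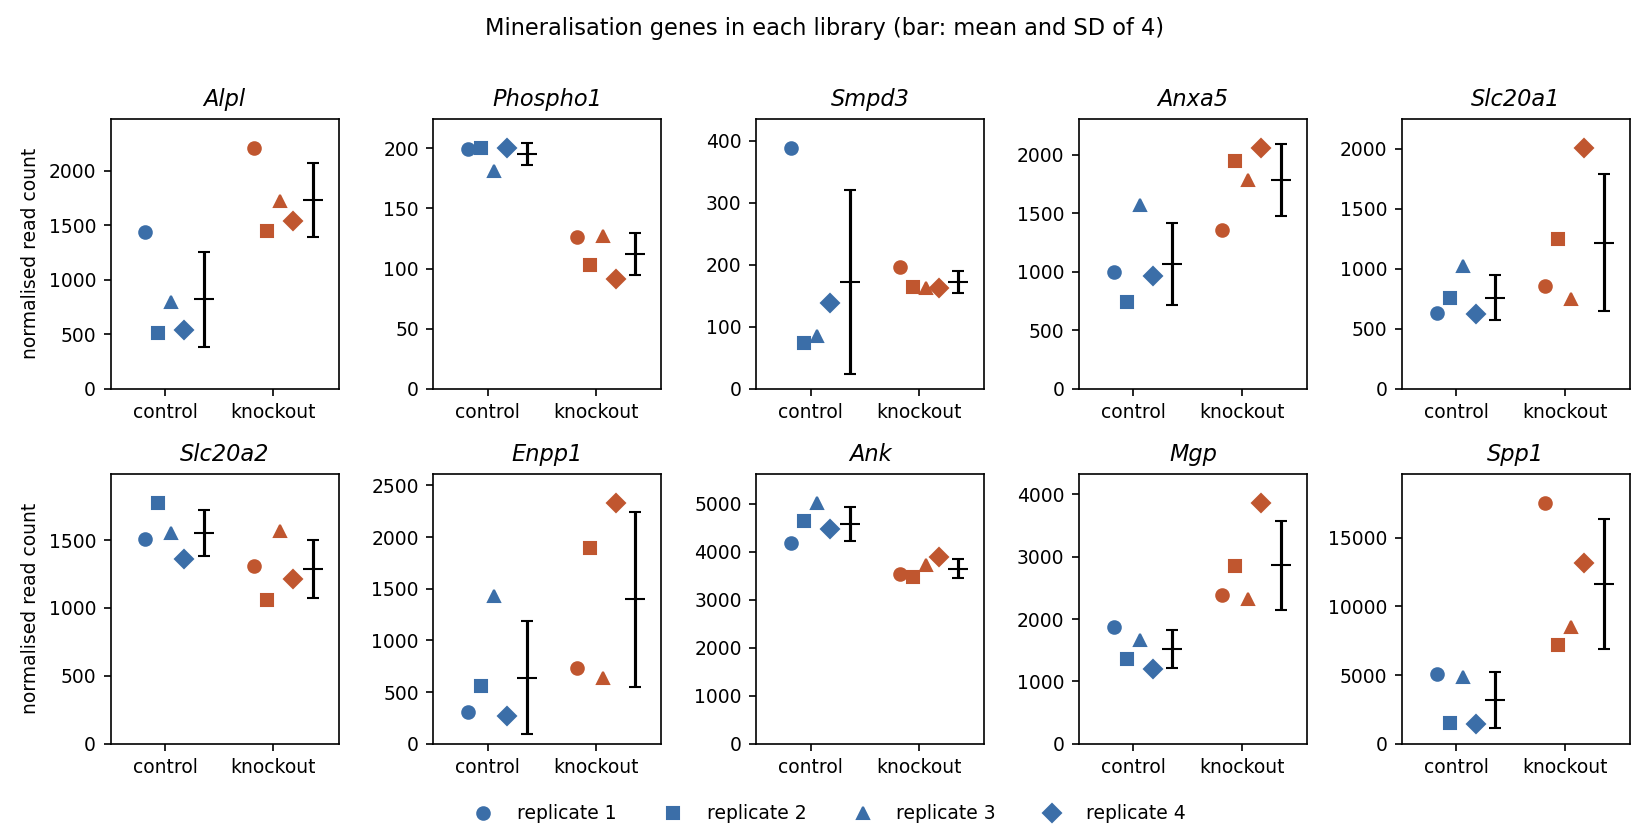
Normalised read count (vertical axes, from 0) of each of the 10 genes in the 4 control libraries (blue) and the 4 labelled knockout (orange), with symbols for the replicate and black bars for mean and SD. The groups do not overlap for Alpl, Phospho1, Ank, Mgp and Spp1, while control replicate 1 stands high for Smpd3 at 389 and control replicate 3 for Enpp1 at 1431.

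The phosphatases came first. Alpl (chromosome 4, 137741733 to 137796384, minus strand) encodes tissue-nonspecific alkaline phosphatase, which cleaves pyrophosphate and so removes the inhibitor while releasing phosphate. In the order of replicates 1 to 4, as throughout, its normalised read counts were 1442, 509, 793 and 538 for control, against 2211, 1445, 1722 and 1541 for the libraries labelled knockout. Control replicate 1 lay just under the lowest library labelled knockout, and the other control libraries lay far below. The difference was 1.19 (SE 0.30), a fold of 2.28 (limma adjusted p = 0.0200, exact two-sided permutation p = 0.0286, the smallest that 70 assignments allow). The call was lost without control replicate 2 (limma adjusted p = 0.0554), control replicate 4 (0.0532) or knockout replicate 1 (0.0517), while control replicate 1, the highest of its group, did not decide it (0.00750 without it).

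Phospho1 (chromosome 11, 95824499 to 95832140, plus strand) encodes a phosphatase that frees phosphate from phosphocholine and phosphoethanolamine inside matrix vesicles. It moved the other way, with 199, 199.9, 181 and 200.5 in the control libraries and 126, 103, 127 and 91.5 in those labelled knockout. The control values were nearly constant and every library labelled knockout lay below them. Phospho1 fell by 0.81 on the log2 scale (SE 0.14, limma adjusted p = 0.00656, exact permutation p = 0.0286), and it stayed called without any single library. In the annotation used here 89.6% of its exon bases are also exon of Zfp652 on the same strand and 84.18% of Abi3 on the opposite strand, which leaves 211 of 2029 bases to Phospho1 alone, so its count is uncertain. Zfp652, a zinc finger gene, was also called lower (mean 2577 ± 272 and 1683 ± 336, log2 difference -0.63, limma adjusted p = 0.0155), and how reads were shared between the genes is not given in the sources used here. Within each library the ratio of Phospho1 to Alpl, which does not depend on library scaling, was 0.138 to 0.393 in control and 0.0568 to 0.0739 in the libraries labelled knockout, without overlap. With Phospho1 lower and Alpl higher in every library labelled knockout, this gap follows from the single genes and is no added support.

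Smpd3 (chromosome 8, 106252548 to 106337988, minus strand) encodes neutral sphingomyelinase 2, which releases phosphocholine from membrane sphingomyelin and thus supplies the substrate of PHOSPHO1. Its values were 389, 73.7, 85.1 and 139 in control and 197, 164, 163 and 162 in the libraries labelled knockout. Both means were 172, with control replicate 1 alone above all other libraries, while the remaining control libraries lay below every library labelled knockout. It was not called (log2 difference 0.33, SE 0.44, limma adjusted p = 0.613), but without control replicate 1 the difference was 0.83 (limma adjusted p = 0.0327).

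Anxa5 (chromosome 3, 36448923 to 36475894, minus strand) encodes annexin A5, a calcium-dependent phospholipid-binding protein abundant in matrix vesicles. It stood at 996, 744, 1567 and 968 in control and at 1357, 1947, 1786 and 2061 in the libraries labelled knockout. Control replicate 3 lay above knockout replicate 1, so the groups overlapped. Anxa5 rose by 0.78 (SE 0.21, limma adjusted p = 0.0272, exact permutation p = 0.0571), and leaving out any of control replicates 1, 2 and 4 or of knockout replicates 2 and 4 ended the call, with limma adjusted p from 0.0545 to 0.0800.

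The phosphate carriers gave no call. Slc20a1 (chromosome 2, 129198764 to 129211616, plus strand) encodes PiT-1, and Slc20a2 (chromosome 8, 22476788 to 22569612, plus strand) its relative PiT-2, both of which bring phosphate into the cell together with sodium. Slc20a1 measured 634, 758, 1027 and 624 in control and 859, 1245, 749 and 2011 in the libraries labelled knockout, a log2 difference of 0.60 (SE 0.29, limma adjusted p = 0.156). Slc20a2 measured 1509, 1776, 1554 and 1363 against 1306, 1056, 1567 and 1213, a difference of -0.28 (SE 0.13, limma adjusted p = 0.139). The groups overlapped for each of these genes, Slc20a1 shares exon bases with Gm4430 (5.02%) and 9830144P21Rik (8.1%) on the opposite strand, and knockout replicate 4 stood well above the rest for Slc20a1. Without knockout replicate 3, which held the highest Slc20a2 count of its group, Slc20a2 was called lower (-0.38, limma adjusted p = 0.0396). The ratio of Slc20a1 to Slc20a2 within a library was 0.420 to 0.661 in control and 0.478 to 1.66 in the libraries labelled knockout.

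Pyrophosphate outside the cell depends on ENPP1, an ectoenzyme that makes it from ATP, and on ANK, a membrane protein that governs its appearance outside the cell. Enpp1 (chromosome 10, 24637914 to 24712159, minus strand) had the widest spread between replicates of the 10 genes in either group, with a log2 SD of 1.11 in control and 0.95 in the libraries labelled knockout. Smpd3 (1.08) and Spp1 (1.03) came close to it in control, and the median gene tested had 0.22 and 0.23. It measured 304, 563, 1431 and 263 in control and 730, 1898, 634 and 2334 in the libraries labelled knockout. Knockout replicates 2 and 4 stood high, and control replicate 3 lay above knockout replicates 1 and 3. The difference of 1.25 was larger than that of Alpl but had an SE of 0.57 and was not called (limma adjusted p = 0.139, exact permutation p = 0.114). Without control replicate 3 it was called (1.75, limma adjusted p = 0.0295).

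Ank (chromosome 15, 27466677 to 27594909, plus strand) was among the steadiest, with a log2 SD of 0.11 in control and 0.07 in the libraries labelled knockout. It measured 4191, 4636, 5027 and 4466 in control and 3529, 3465, 3726 and 3883 in the libraries labelled knockout, all 4 below every control library. Ank fell by 0.33 on the log2 scale (SE 0.08, limma adjusted p = 0.0223, exact permutation p = 0.0286), close to the median absolute difference of 0.30 over all genes. The call was lost under quantile normalisation (-0.06, limma adjusted p = 0.647) and under the scaling without muscle, blood and the highest genes (-0.18, 0.147). Without control replicate 2 or knockout replicate 1 or 2 the limma adjusted p was 0.0615, 0.0559 and 0.0581.

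Ratios within a library set the genes that act on pyrophosphate side by side without any library scaling, and they are given with no test. The ratio of Alpl to Ank was 0.344, 0.110, 0.158 and 0.120 in control and 0.626, 0.417, 0.462 and 0.397 in the libraries labelled knockout, with no overlap. That gap restates the single genes, since every library labelled knockout lay above control for Alpl and below it for Ank. The ratio of Alpl to Enpp1, the cleaving over the producing enzyme, was 4.74, 0.903, 0.554 and 2.05 in control and 3.03, 0.762, 2.72 and 0.660 in the libraries labelled knockout. That second ratio overlapped, with a high and a low pair of libraries in each group. The ratio of Enpp1 to Ank ranged from 0.0589 to 0.285 and from 0.170 to 0.601.

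**Figure D2:**
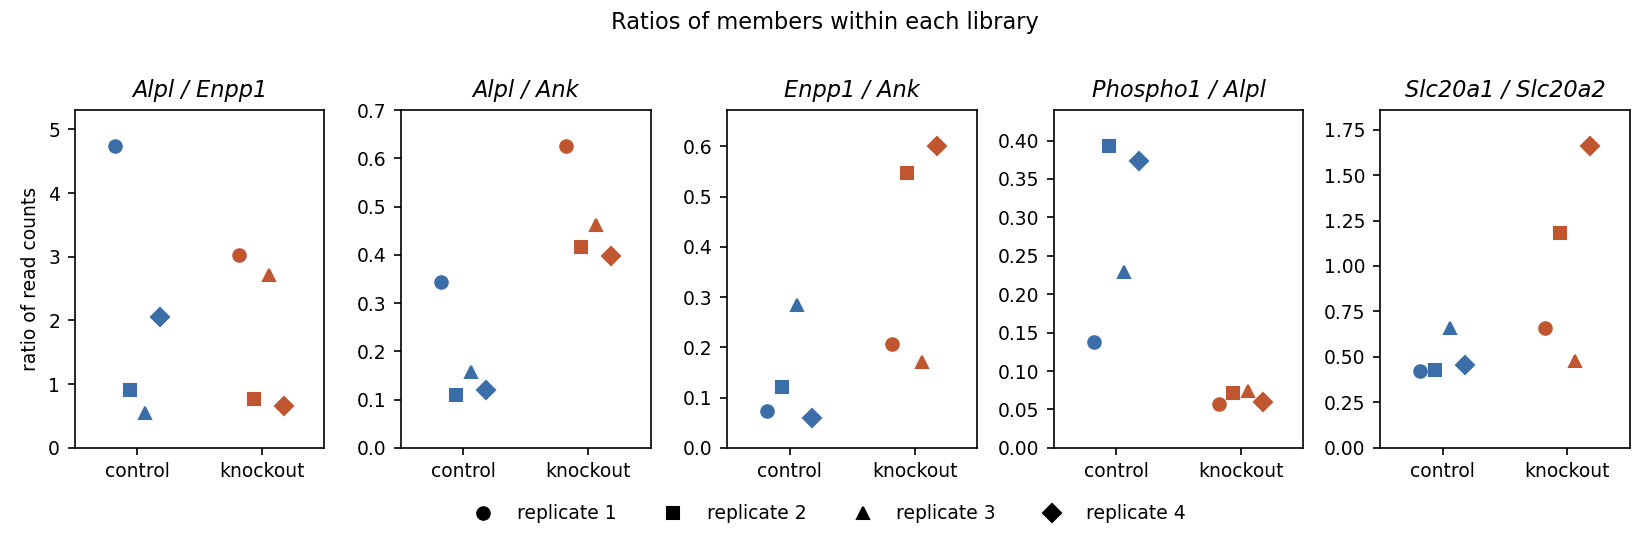
Ratio of normalised read counts of gene pairs within each library (vertical axes, from 0), control in blue and labelled knockout in orange, with symbols for the replicate. The groups are apart for Alpl to Ank and for Phospho1 to Alpl, which follows from the values of these genes taken singly. They overlap for the other 3 ratios.

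The mineral-binding inhibitors rose. Mgp (chromosome 6, 136872435 to 136875823, minus strand) encodes matrix Gla protein, a small vitamin K-dependent protein that keeps cartilage and vessel walls free of mineral. It measured 1870, 1351, 1667 and 1199 in control and 2393, 2856, 2325 and 3869 in the libraries labelled knockout, which all lay higher. The difference was 0.90 (SE 0.18, fold 1.87, limma adjusted p = 0.0105, exact permutation p = 0.0286), and it stayed called without any single library.

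Spp1 (chromosome 5, 104435118 to 104441050, plus strand) encodes osteopontin, an acidic phosphoprotein of bone matrix that binds mineral and is also secreted by osteoclasts and macrophages. It measured 5053, 1502, 4885 and 1400 in control and 17563, 7170, 8496 and 13191 in the libraries labelled knockout. Control replicates 1 and 3 were high within their group and still under the lowest library labelled knockout. Spp1 had the largest difference of the 10 genes, 2.02 (SE 0.47, fold 4.06, limma adjusted p = 0.0154, exact permutation p = 0.0286), and it stayed called without any single library, at 1.71 to 2.33. An unclassified transcript, Gm42793, shares 18.75% of its exon bases on the same strand.

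**Figure D3:**
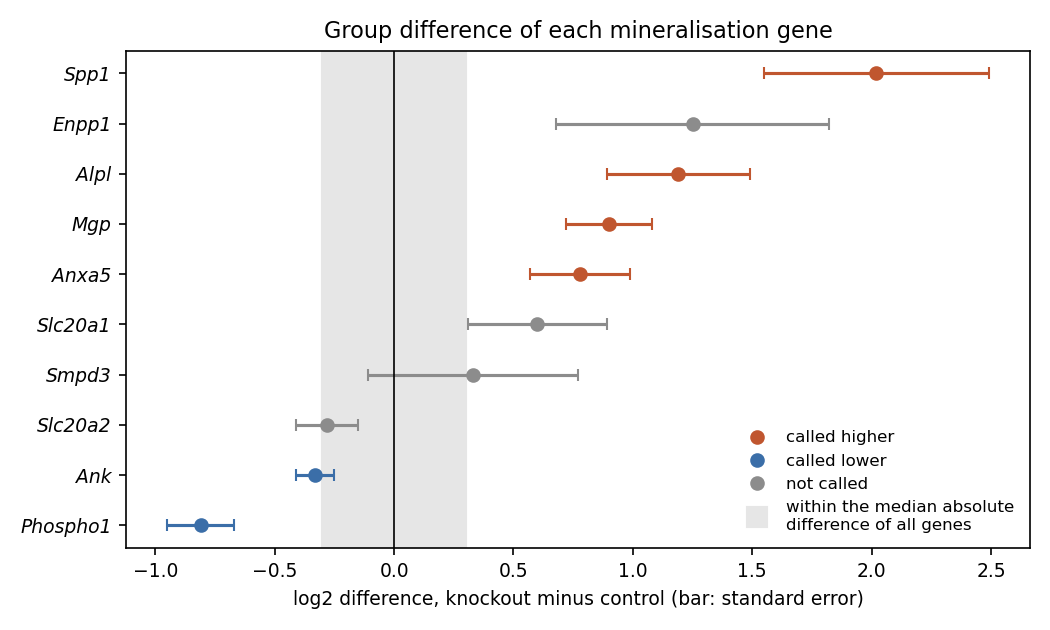
Log2 difference of each gene (horizontal axis, libraries labelled knockout minus control, bars for the SE), ordered by size, with called genes in colour and the grey band marking the median absolute difference of all genes tested (0.30). Spp1 lies farthest right at 2.02 and Phospho1 farthest left at -0.81, and Enpp1 has the widest bar.

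To compare the genes with each other, counts were divided by exon length in kilobases. Per kilobase, the order in control was Spp1 (1948 ± 1233), Mgp (1282 ± 255), Ank (1269 ± 96.9), Anxa5 (602 ± 198), Slc20a2 (249 ± 27.5), Alpl (203 ± 107), Slc20a1 (136 ± 33.6), Phospho1 (96.2 ± 4.56), Enpp1 (62.4 ± 53.0) and Smpd3 (32.8 ± 28.3, all SD, n = 4). Spp1, Mgp and Ank overlapped as neighbours in that order, as did Slc20a2 with Alpl, Alpl with Slc20a1, Phospho1 with Enpp1 and Enpp1 with Smpd3. In the libraries labelled knockout Spp1 (7042 ± 2875 per kilobase) and Mgp (2410 ± 600.1) each stood clear of the next gene, and Alpl, at 429 ± 84.5, came before Slc20a1 (218 ± 102) and Slc20a2 (207 ± 34.4), with overlapping ranges between these neighbours. Ank (1011 ± 52.7) and Anxa5 (1006 ± 174) were then level, and Phospho1 (55.1 ± 8.65) had moved behind Enpp1 (136 ± 82.7), with overlapping ranges. The per-kilobase level of Phospho1 rests on a length shared with Zfp652.

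The stretches just upstream of the transcription start are shown for the genes with the largest rise and fall, Spp1 and Phospho1, and for Alpl and Ank, which act on pyrophosphate and were called in opposite directions, since the data bear on their transcripts. RefSeq's promoter table (GRCm38.p6, the build of mm10) held windows for 7 of the 10 genes, and the 250 bases before the start are printed 5′ to 3′ on the gene's strand. Capitals mark matches to any of 5 motifs, searched on both strands. The core bound by RUNX factors was spelled TGTGGT, and the TATA box that can place the start of transcription was spelled TATAAA. For the GC box, known as a binding site of SP factors, the letters were GGGCGG. The AP-1 site was searched as TGANTCA, with N for any base, and the E-box of basic helix-loop-helix factors as CAGCTG. Matches to the same motif may overlap, as they do in Alpl, Phospho1 and Ank. The windows are chr5:104434861-104435110 (plus) for Spp1, chr11:95824250-95824499 (plus) for Phospho1, chr4:137796385-137796634 (minus) for Alpl and chr15:27466427-27466676 (plus) for Ank.
Spp1: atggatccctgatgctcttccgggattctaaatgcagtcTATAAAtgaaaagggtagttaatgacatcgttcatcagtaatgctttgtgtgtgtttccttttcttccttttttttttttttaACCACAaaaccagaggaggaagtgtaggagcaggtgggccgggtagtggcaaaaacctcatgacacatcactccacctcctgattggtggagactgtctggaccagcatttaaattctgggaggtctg
Phospho1: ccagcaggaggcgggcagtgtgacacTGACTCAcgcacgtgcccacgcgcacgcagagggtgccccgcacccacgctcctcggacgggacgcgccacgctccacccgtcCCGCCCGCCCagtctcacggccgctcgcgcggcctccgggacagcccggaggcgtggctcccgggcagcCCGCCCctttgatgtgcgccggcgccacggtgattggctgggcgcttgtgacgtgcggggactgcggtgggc
Alpl: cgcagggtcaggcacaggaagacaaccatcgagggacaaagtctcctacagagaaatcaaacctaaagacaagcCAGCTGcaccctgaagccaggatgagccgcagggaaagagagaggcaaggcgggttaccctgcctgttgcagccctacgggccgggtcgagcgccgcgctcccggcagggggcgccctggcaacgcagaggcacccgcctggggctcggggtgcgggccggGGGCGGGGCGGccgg
Ank: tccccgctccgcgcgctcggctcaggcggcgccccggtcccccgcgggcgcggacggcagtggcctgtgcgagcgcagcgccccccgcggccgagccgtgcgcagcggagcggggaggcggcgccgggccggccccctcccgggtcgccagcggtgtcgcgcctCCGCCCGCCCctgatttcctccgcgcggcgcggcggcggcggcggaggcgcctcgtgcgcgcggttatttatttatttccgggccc

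The Spp1 window was the poorest in G and C of these 4, at 43.6% with 3 CpG pairs, against a median of 52.4% and 6 CpG pairs over 32526 windows of mouse genes. Those of Alpl (68.4%, 20 CpG pairs), Phospho1 (75.6%, 34) and Ank (81.2%, 49) were rich in both. Of the 4, Spp1 alone held a RUNX core match, 122 bases from the start, and a TATA box match, 205 bases from it, found in 14.0% and 12.3% of all windows, and it had no GC box match. The windows of Enpp1 and Slc20a1, not printed, also held a RUNX core match. The GC box, present in 33.0% of windows, occurred 2 times in Alpl, 3 times in Phospho1 and 2 times in Ank, while Alpl also held an E-box match (13.1% of windows) and Phospho1 an AP-1 match (6.73%). Such matches describe the letters of the window and are not evidence of binding.

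Other genes of the pathway were taken from 5 lists, of which 57 genes were tested, 15 were called higher and 5 lower (35.1% called, against 23.2% of all genes). The lists too were chosen with earlier results of these data known, so the rates are a description only. Beside the counts of each list below stand the rates over all genes, 11.6% called higher and 11.6% called lower. Several of these small lists lie near those rates. In the list of phosphate, pyrophosphate and nucleotide handling, limma called 0 of 9, with 1 at an unadjusted p under 0.05, and edgeR and DESeq2 called 0 each. Its median difference was -0.08. Its members include Xpr1, the phosphate exporter, at 1466 ± 86.2 and 1330 ± 284, and Ppa1, a cytosolic pyrophosphatase, at 736 ± 62.7 and 705 ± 143. The unadjusted p under 0.05 belonged to Slc29a1, a nucleoside carrier (log2 difference 0.50, limma adjusted p = 0.113), which was singled out after its value was seen.

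Among annexins and the enzymes of sphingomyelin and choline, 3 of 18 were called higher and 4 lower, with a median of 0.24. Anxa2, a membrane-binding relative of Anxa5, rose from 1655 ± 477 to 3488 ± 583 (log2 difference 1.10, SE 0.19, limma adjusted p = 0.00656). Anxa6, another annexin of matrix vesicles, fell from 3731 ± 178 to 2688 ± 335 (-0.48, SE 0.10, limma adjusted p = 0.0106), a call lost under quantile normalisation. Smpdl3a, of the acid sphingomyelinase family, fell from 1241 ± 20.3 to 983 ± 72.6 (-0.34, limma adjusted p = 0.0154), and that call was lost under quantile normalisation and under the scaling without muscle, blood and the highest genes.

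Of the bone matrix phosphoproteins and osteocalcins with their processing enzymes, 2 of 9 were called higher and 0 lower, although all 9 differences were positive, with a median of 1.41. Fam20a, a pseudokinase that assists the secretory kinase of these proteins, rose from 83.3 ± 18.7 to 196 ± 28.8 (log2 difference 1.24, SE 0.19, limma adjusted p = 0.00458). Ibsp, the gene of bone sialoprotein, read 3076, 351, 984 and 343 in control and 7314, 1911, 3476 and 4035 in the libraries labelled knockout, so that control replicate 1 lay above knockout replicate 2 (2.27, SE 0.66, limma adjusted p = 0.0351). The Ibsp call was lost in 8 alternatives, among them edgeR and DESeq2. Dmp1 (173 ± 202 and 355 ± 125) and Bglap, the osteocalcin gene (461 ± 474 and 849.6 ± 402), were not called, with a control SD as large as the mean.

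In the vitamin K cycle and among the secreted inhibitors, 3 of 7 were called higher and 0 lower, with a median of 0.64. Ggcx, whose enzyme carboxylates matrix Gla protein, rose from 229 ± 9.56 to 308 ± 17.3 (log2 difference 0.43, SE 0.10, limma adjusted p = 0.0141). Gas6, another vitamin K-dependent protein, rose from 2884 ± 306 to 4241 ± 444 (0.56, limma adjusted p = 0.00867). Tnfrsf11b, the gene of osteoprotegerin, rose from 105 ± 39.6 to 211 ± 71.2 (1.02, limma adjusted p = 0.0406), a call lost in 8 alternatives.

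Regulators of mineralising cells had 7 of 14 called higher and 1 lower, with a median of 0.95. Dlx5, a homeobox factor of osteoblasts, rose from 51.8 ± 26.6 to 169 ± 47.3 (log2 difference 1.76, SE 0.33, limma adjusted p = 0.00833). Pth1r, the receptor of parathyroid hormone and its related peptide, rose from 487 ± 288 to 1216 ± 198 (1.49, SE 0.35, limma adjusted p = 0.0162). Mef2c, a factor of hypertrophic chondrocytes that is also abundant in muscle, fell from 11071 ± 925 to 7473 ± 507 (-0.57, SE 0.10, limma adjusted p = 0.00613), and its call was lost under quantile normalisation.

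A whole joint holds many tissues, and in bulk RNA fewer cells of a type and less RNA per cell cannot be told apart. For the marker counts below, the calls over all 14949 genes were 3461 by limma (23.2%), 3324 by edgeR and 4125 by DESeq2. The summed counts of 9 osteoblast and osteocyte markers were 577 to 5988 in control and 4653 to 10252 in the libraries labelled knockout, with 2 of 9 called higher by limma and 0 by edgeR and by DESeq2 (4 of 9 at an unadjusted limma p under 0.05), and control replicate 1 held the 5988. The 4 control libraries stood in the same order for these markers (5988, 577, 1902 and 949.7) as for Alpl, and knockout replicate 1 led in both. Control replicate 1 was also the library with high Smpd3. The part of the bone markers in the Alpl and Smpd3 values was not tested.

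Osteoclast markers, 8 of 10 called higher by limma and 4 each by edgeR and DESeq2, with Ctsk, Acp5 and Mmp9 the most abundant, summed to 15914, 3023, 3909 and 3287 in control and 41924, 11762, 19306 and 31216 in the libraries labelled knockout. The latter 4 stood in the same order for Spp1, whereas control replicate 3, high in Spp1 at 4885, was not high in these markers. That order was not particular to osteoclast markers. The summed osteoblast and osteocyte markers had it too, at 10252, 4653, 5255 and 5751 in the libraries labelled knockout. In control, replicates 1 and 3 led in those bone markers (5988 and 1902), as they did in Spp1. Macrophage markers, 11 of 12 called higher, summed to 4552, 3129, 7078 and 6653 in control and 11295, 13057, 10828 and 15139 in the libraries labelled knockout. Their order was not that of Spp1 in either group: control replicate 4 was lowest in Spp1 and second highest in these markers, and knockout replicate 1 was highest in Spp1 and below replicates 2 and 4 in the markers. The part of bone, osteoclast and macrophage markers in the Spp1 values was not tested.

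Skeletal muscle markers, 8 of 18 called lower by limma, 14 by edgeR and 15 by DESeq2, summed to 2577347 to 2794489 in control and 1262954 to 1764197 in the libraries labelled knockout. The libraries labelled knockout with the least muscle signal, replicates 4 and 2 (1262954 and 1574596), were those with the most Enpp1 and Slc20a1. The control libraries did not keep this order. Control replicate 3 had the least muscle signal (2577347) and the most of both genes. Control replicate 2 had the most muscle signal (2794489) and came next in both genes. Fibroblast markers, 8 of 13 called higher, summed to 132363, 58226, 151583 and 52856 in control and 305469, 277812, 197886 and 312509 in the libraries labelled knockout. Control replicate 3 and knockout replicate 4 led their groups in these markers and in Enpp1, whereas control replicate 1 and knockout replicate 1 were second in the markers with low Enpp1 (304 and 730). All 10 erythroid markers were lower, none called by limma or edgeR and 1 by DESeq2, with 9 at an unadjusted p under 0.05 and sums of 16878 to 99485 and 4069 to 42845. With a muscle score, the mean of the muscle markers, as a covariate, limma called 0 of 14949 genes and 0 of the 10, with 604 genes and 0 of the 10 at an unadjusted p under 0.05. The score had 84.9% of its variance between the groups, so that muscle signal and group cannot be told apart. The part of fibroblasts and red cells in the 10 genes was not tested. Matn1, a listed cartilage marker, was not among the genes measured. Every other marker of the lists described here was above 0 in every library except Matn3 of cartilage, at 0 in control replicate 3. Cartilage markers, 1 of 12 called higher, summed to 4388 to 13532 and 11026 to 15254, and hypertrophic cartilage markers, 1 of 3 called higher, to 294 to 2637 and 4685 to 14365, most of it Mmp13.

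**Figure D4:**
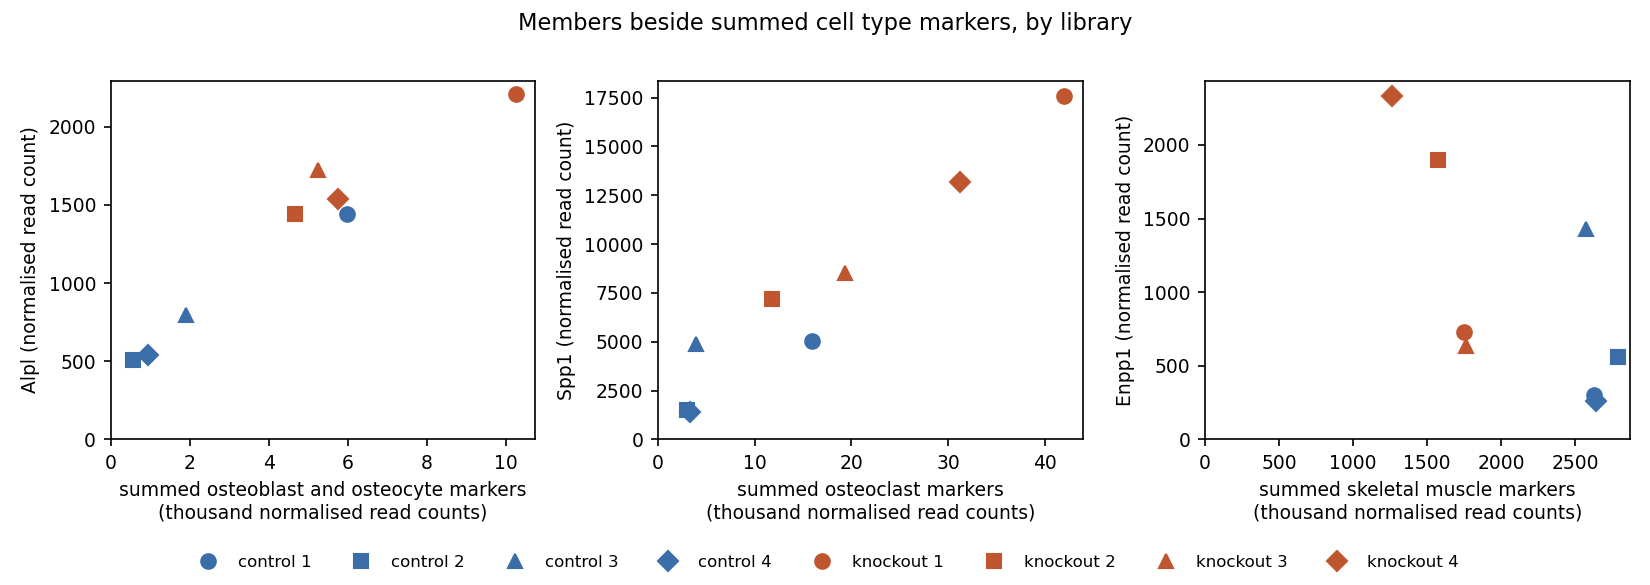
Normalised read count of Alpl, Spp1 and Enpp1 (vertical axes) against the summed counts of osteoblast and osteocyte, osteoclast and skeletal muscle markers (horizontal axes, divided by 1000), 1 point per library, control in blue and labelled knockout in orange. Control replicate 1 lies beside the libraries labelled knockout for Alpl (1442) and the bone markers (5988), and the 2 libraries labelled knockout with the least muscle signal hold the most Enpp1. In control, replicate 3 has the least muscle signal and the most Enpp1, but replicate 2, with the most muscle signal, comes next in Enpp1.

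**Figure D5:**
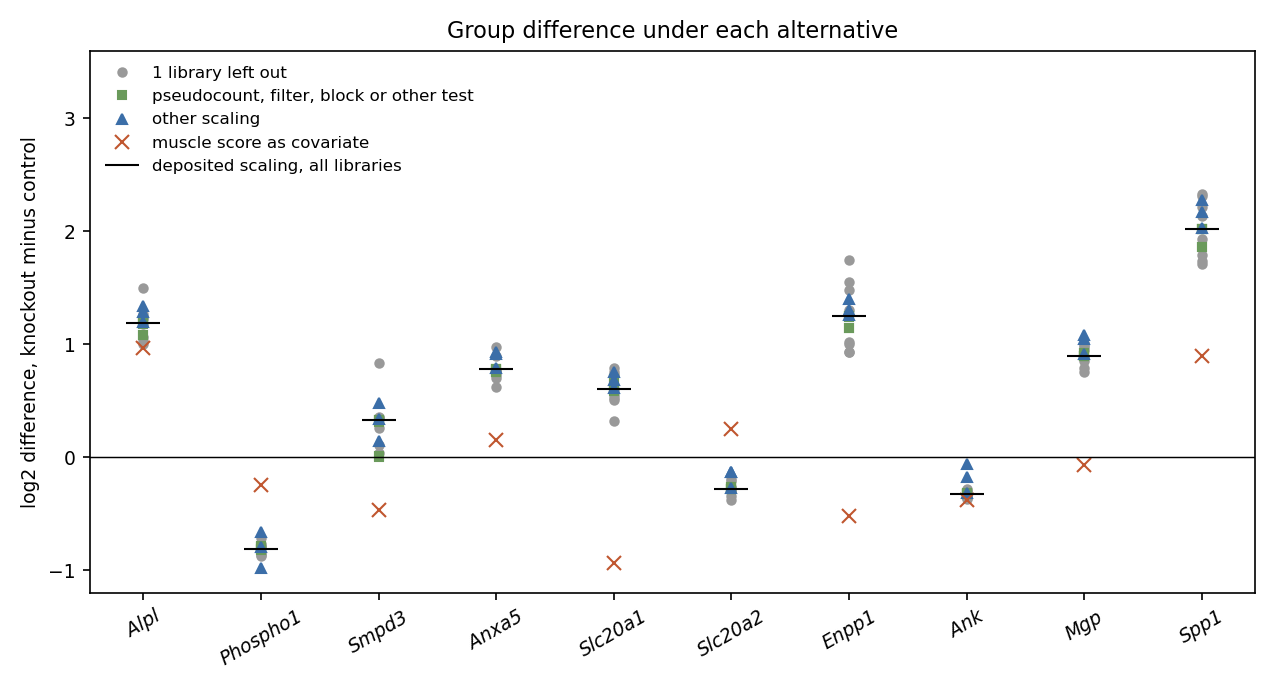
Log2 difference of each gene (vertical axis, libraries labelled knockout minus control) with the deposited scaling and all libraries (black line) and under each alternative (grey circles 1 library left out, green squares pseudocount, filter, block or other test, blue triangles other scalings, crosses the muscle covariate). Spp1 keeps to 1.71 to 2.33 without 1 library, and the crosses change sign for Enpp1, Mgp, Slc20a1, Slc20a2 and Smpd3. These crosses have SEs, not drawn, of 0.28 to 1.42, and all but that of Slc20a1 lie nearer to 0 than their SE.

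The genes whose profile over the 8 libraries was nearest to a given gene were found by the mean absolute difference of log2 values, each gene centred on its own mean. Nearest to Alpl were A230050P20Rik, Tmem176a, a membrane protein gene, and Plcg2, a phospholipase C gene of immune cells, each at a distance of 0.15. Nearest to Spp1 were Runx2, the master factor of osteoblasts, at 0.22, and Clec4a2, a lectin receptor gene of myeloid cells, and Srpx at 0.24. Runx2 read 251, 56.5, 172 and 74.5 in control and 610.4, 275, 362 and 393 in the libraries labelled knockout, with control replicates 1 and 3 high, as for Spp1. Nearest to Enpp1 were Adamts18, a secreted protease gene, at 0.17, Col5a3, a chain of collagen V, at 0.20 and Htra1, a serine protease gene, at 0.21. These distances rest on 8 libraries that share the group contrast and are given as a description.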

How the data were processed

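Per the labels, TRIzol and column purification gave the RNA of 8 knee joints, which was sequenced after poly-A capture and random priming. The deposited values are a normalised signal, 1 per gene and library. Per the submitters' processing notes, reads were aligned to mm10 with HISAT2 and counted with featureCounts, and per the series' design text the authors used DESeq2 for normalisation and filtering. Versions, annotation, use of strand and filter values are not given in the sources used here.

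All values were whole multiples (within 0.01) of a step per column, and the inverse step equalled the median-of-ratios size factor, so whole reads were recovered. For the second control and the first knockout library the step lies so near 1 that it tells little alone. Library totals were 13991000 to 17411617 reads, which limits the precision of low genes. Of the value columns, 0 lacked a sample. Libraries of a group differed by more than counting error (chi-square per degree of freedom 24.99 to 66.86), so none was counted as a duplicate.

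Samples were grouped by title. Genes reaching 10 in at least 4 libraries were fitted with limma 3.58.1 (lmFit, eBayes with trend, group only) on log2(value + 1), with Benjamini-Hochberg adjustment over 14949 genes, and single values by exact two-sided permutation over 70 assignments. Alternatives were pseudocounts of 0.1 and 5, no filter, 3 other scalings, a replicate block, a muscle covariate, edgeR 4.0.16 and DESeq2 1.42.0 on recovered reads, and leaving out each library. The scripts were checked on simulated data with 195 changed genes of 14728. There limma made 159 calls with 9 false, edgeR 157 with 8 false and DESeq2 202 with 39 false. DESeq2 counts are therefore the least strict of these. Symbols matched GENCODE M21 (GRCm38) for 99.2% of rows, which gave coordinates, overlaps and exon lengths.

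The 10 genes and the lists were chosen with earlier results of these data known. Named were Loxl2, the 10 genes, at most 3 called genes of smallest p per pathway list, the 3 nearest profiles of Alpl, Spp1 and Enpp1, and abundant markers. Other pathway genes named as not called, and Runx2's values by library, were picked after their values were seen. The osteoblast and osteocyte markers share 8 of 9 genes with the pathway lists.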

Additional observations from a re-analysis of the deposited data

Results flagged for a closer look

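In 32 groups of 4 libraries, the 10 genes, Loxl2 and 5 ratios in each group, 4 held a library whose gap to its nearest neighbour exceeded the 95% critical value of Dixon's test as a share of the group's range, where chance gives about 1 in 20. Phospho1 was lowest in control replicate 3 at 181, while the other control libraries lay between 199 and 200.5. Smpd3 was highest in knockout replicate 1 at 197, against 162 to 164 in the rest of its group. Loxl2 was highest in control replicate 3 at 1135, against at most 349 in the other control libraries. The ratio of Slc20a1 to Slc20a2 was highest in control replicate 3 at 0.661, against 0.420 to 0.458. Of these 4, 3 were in control replicate 3.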

How the results depend on the processing

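Over all genes, 3461 calls became 1751 to 3841 when 1 library was left out (fewest without knockout replicate 4, 1887 without control replicate 2, 2194 without control replicate 4). The 6 calls among the 10 genes became 3 to 7, with 3 (Spp1, Phospho1 and Mgp) without control replicate 2 and 4 without control replicate 4 or knockout replicate 1 or 2. The 20 calls among other mineralisation genes became 9 to 26, with 9, 10 and 11 without knockout replicate 4, control replicate 2 and knockout replicate 1, and 11 under quantile normalisation. The muscle covariate left 0 calls in each of these 3 counts. It turned Enpp1 to -0.52 (SE 1.42), Mgp to -0.07 (SE 0.35), Slc20a1 to -0.94 (SE 0.55), Slc20a2 to 0.25 (SE 0.28) and Smpd3 to -0.47 (SE 1.15). All but that of Slc20a1 were smaller than their SE. Their limma adjusted p was 0.994 to 0.996, so no direction can be read from them. Spp1, Phospho1 and Mgp were called in every alternative but the muscle covariate. edgeR and DESeq2 called the same 6 genes.

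Log2 values were taken as deviations from each gene's group mean, so that the correlations concern only the differences between replicates. On these deviations same-numbered libraries correlated at 0.213, -0.118, -0.233 and -0.063. Only the replicates numbered 1 correlated best with each other, and every other library correlated best with a different number. The labels do not say what the numbers mark, and so few libraries cannot show whether same-numbered ones share a litter, day or batch. With the replicate block 2018 genes were called, 14 of the other mineralisation genes and 5 of the 10, with Ank at a limma adjusted p of 0.0640, and the Ggcx, Smpdl3a and Tnfrsf11b calls were lost. The block lowered the SE of some genes, from 0.30 to 0.16 for Alpl and from 0.66 to 0.33 for Ibsp. For others the SE rose, as for Mgp from 0.18 to 0.22.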
